A study of Mus musculus with 7 samples.

Results

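A set of 9 long noncoding RNAs, chosen by gene symbol, was followed in ribosome-bound and unbound RNA of mouse midbrain. The genes were Malat1, Neat1, Meg3, Rian, Mirg, Miat, Rmst, Snhg11 and Gas5, which made 9 of the 32531 gene rows in each count file. All 9 symbols were present, and all 9 passed the filter on low counts that left 17654 genes for testing. The study used translating ribosome affinity purification (TRAP), in which ribosomes that carry a tagged protein are pulled out of a homogenate on antibody-coated beads together with the RNA they hold. RNA recovered from the beads gave 3 libraries, called IP and numbered 1, 2 and 4, and RNA left behind in the homogenate gave 4 libraries, called unbound and numbered 1 to 4. Both kinds came from the midbrain of adult, untreated control mice of the line Stard8-TRAP ES2342, which carries the ribosomal protein Rpl10a fused to EGFP under the name of Stard8, so the transgene was common to all libraries. The labels give neither the age of the mice nor the number of animals per library. No IP library with the number 3 was used here.

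Long noncoding RNAs are transcripts that are spliced and polyadenylated much like mRNAs, or end in other ways, but encode no known protein. Many stay in the nucleus: Malat1 gathers in nuclear speckles next to splicing factors, Neat1 is the scaffold of paraspeckles, and Miat, also known as Gomafu, forms its own nuclear domains in neurons. Meg3, Rian and Mirg are transcribed from the maternal copy of the imprinted Dlk1-Dio3 locus, and Rian and Mirg carry small nucleolar RNAs (snoRNAs) and microRNAs (miRNAs). Rmst is a neural transcript that was described as a partner of the transcription factor Sox2, and Snhg11 is a snoRNA host gene expressed mainly in neurons. Gas5 is a snoRNA host whose spliced RNA has a terminal oligopyrimidine (TOP) start like the mRNAs of ribosomal proteins and associates with ribosomes, and it served as the contrast. The position of an RNA in the cell was not measured in this study.

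Sequence elements tied to these descriptions are shown first, on the mouse build GRCm38 (mm10). Malat1 lies at chr19:5795690-5802672 on the minus strand and Neat1 at chr19:5824708-5845478 on the same strand. The mature 3′ end of Malat1 and of the long Neat1 transcript holds 2 U-rich runs and an A-rich run, which fold into a stabilising structure in place of a poly(A) tail. The capitals mark those runs, from the GENCODE M21 transcripts, written as DNA (Malat1 at chr19:5795982-5796077 and Neat1 at chr19:5824708-5824807).
Malat1 3′ element: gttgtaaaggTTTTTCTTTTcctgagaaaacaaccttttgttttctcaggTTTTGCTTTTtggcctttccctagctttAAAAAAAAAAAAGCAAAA
Neat1 3′ element: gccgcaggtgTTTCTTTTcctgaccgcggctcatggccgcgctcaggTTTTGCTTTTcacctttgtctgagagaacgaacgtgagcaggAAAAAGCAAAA
The runs TTTCTTTT, TTTTGCTTTT and AAAAAGCAAAA, in this order, on the transcript strand and with at most 80 bases between neighbours, occurred in 2 of 55341 genes with a GENCODE M21 transcript (0.00361%), which were Malat1 and Neat1. The letters searched were read from these genes, so the count describes how rare they are and tests nothing.

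Miat lies at chr5:112213228-112229395 on the minus strand. It is known for copies of TACTAAC, the letters of an intron branch point, which bind the splicing factor Sf1. The capitals mark the copies in a pair of stretches of the transcript (chr5:112217314-112217455 and chr5:112216757-112216807).
Miat first stretch: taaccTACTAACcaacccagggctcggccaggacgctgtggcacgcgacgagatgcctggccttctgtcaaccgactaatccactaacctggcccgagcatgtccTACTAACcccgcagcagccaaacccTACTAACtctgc
Miat second stretch: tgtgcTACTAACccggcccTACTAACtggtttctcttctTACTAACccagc
Miat held 6 copies on the transcript strand, a number reached by 4 of the 55341 genes (0.00723%), whereas 5.64% of genes held at least 1. Neat1, Rian and Gas5 held 1 copy each and the other five members none.

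The start of Gas5 is shown beside those of Miat and Malat1, since a TOP start is a C followed by a run of pyrimidines at the first transcribed base. The sequences are RefSeq gene starts on mm10, with 15 bases before the start, and the capitals mark the first 5 transcribed bases.
Gas5 start (chr1:161035151-161035200, plus strand): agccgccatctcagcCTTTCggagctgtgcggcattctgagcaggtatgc
Miat start (chr5:112228914-112228963, minus strand): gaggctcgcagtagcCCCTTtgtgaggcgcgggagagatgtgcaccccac
Malat1 start (chr19:5802638-5802687, minus strand): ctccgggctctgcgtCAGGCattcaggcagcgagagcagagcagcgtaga
A C followed by 4 pyrimidines stood at the first base of 2 of the 9 start entries matched to 7 members, those of Gas5 and Miat, and of 2.51% of all 32851 entries. Gas5 had 2 entries, and the one shown is the entry with that start.

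The libraries held 52052340 to 76114634 counts in genes, so 3 counts, taken as the detection floor, stood at 0.0376 to 0.0589 counts-per-million (CPM). CPM are scaled here by trimmed mean of M-values (TMM) factors. The series title speaks of neurons, and the markers in the IP libraries go against that: all 18 of 18 pan-neuronal genes were lower in IP than in unbound RNA, while 14 of 14 endothelial, 11 of 11 pericyte and smooth muscle and 12 of 12 microglia and macrophage genes were higher. None of these markers was at 0 in every library of a group. The pan-neuronal genes took 0.526 to 1.01% of gene counts in IP libraries and 1.87 to 2.73% in unbound libraries. IP 4 stood nearest to the unbound libraries, with 1.01% against 0.526 and 0.568% in IP 1 and IP 2. Ambiguous reads, which overlapped several genes, made up 1.43 to 1.63% of all rows in IP libraries and 7.26 to 11.5% in unbound libraries, while reads with several alignments made up 33 to 39.6% in IP libraries and 17.6 to 34.6% in unbound libraries. Per the labels, IP libraries were sequenced on lanes 2 and 5 and unbound libraries on lanes 1 and 3, so lane and group cannot be told apart. The part of these differences in the results on the noncoding RNAs was not tested, other than by the ratios to neuronal genes given further on. Nothing in the labels says that libraries came from separate animals, so p-values measure only the spread between these libraries.

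Of the 9 noncoding RNAs, 7 were lower in IP than in unbound RNA and 0 were higher. Malat1, Meg3, Rian, Mirg, Miat, Rmst and Snhg11 had log2 fold changes from -3.26 to -2.18, with adjusted p from 3.01e-05 to 0.00663 in edgeR's quasi-likelihood test. Neat1 and Gas5 did not pass. Within the libraries of sequencing index ACAGTG (IP 1 and 2, unbound 1 and 2) the 7 called genes had log2 fold changes from -3.77 to -2.55. Within index GTGAAA (IP 4, unbound 3 and 4) the 7 genes named above had log2 fold changes from -2.58 to -1.53. The lone IP library there is assumed to vary like the unbound ones. Without IP 4 and unbound 2, left out together after the data had been seen, the same 7 genes had log2 fold changes from -4.25 to -2.01. Neat1 stood at -3.04 and Gas5 at -0.33 in that fit. Among all 17654 genes, 39.4% were called in either direction, 20.5% were called higher and 18.9% were called lower, or 3328 genes, a count that was 1751 without IP 2 and 1899 without IP 1. All 7 called members also had a log2 fold change of -2 or below, and 870 of all tested genes (4.93%) were both called lower and at or below that value. In the same 7 every IP library was below every unbound library, which held for 22.7% of all genes, and in 0 members was every IP library above every unbound library, as in 25.1% of all genes. The median log2 fold change was -2.60 over the 9 members and -0.10 over all tested genes. In bulk tissue, fewer cells of a type and less RNA per cell cannot be told apart, and the same holds here for a smaller share of a gene's RNA on ribosomes.

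**Figure D1:**
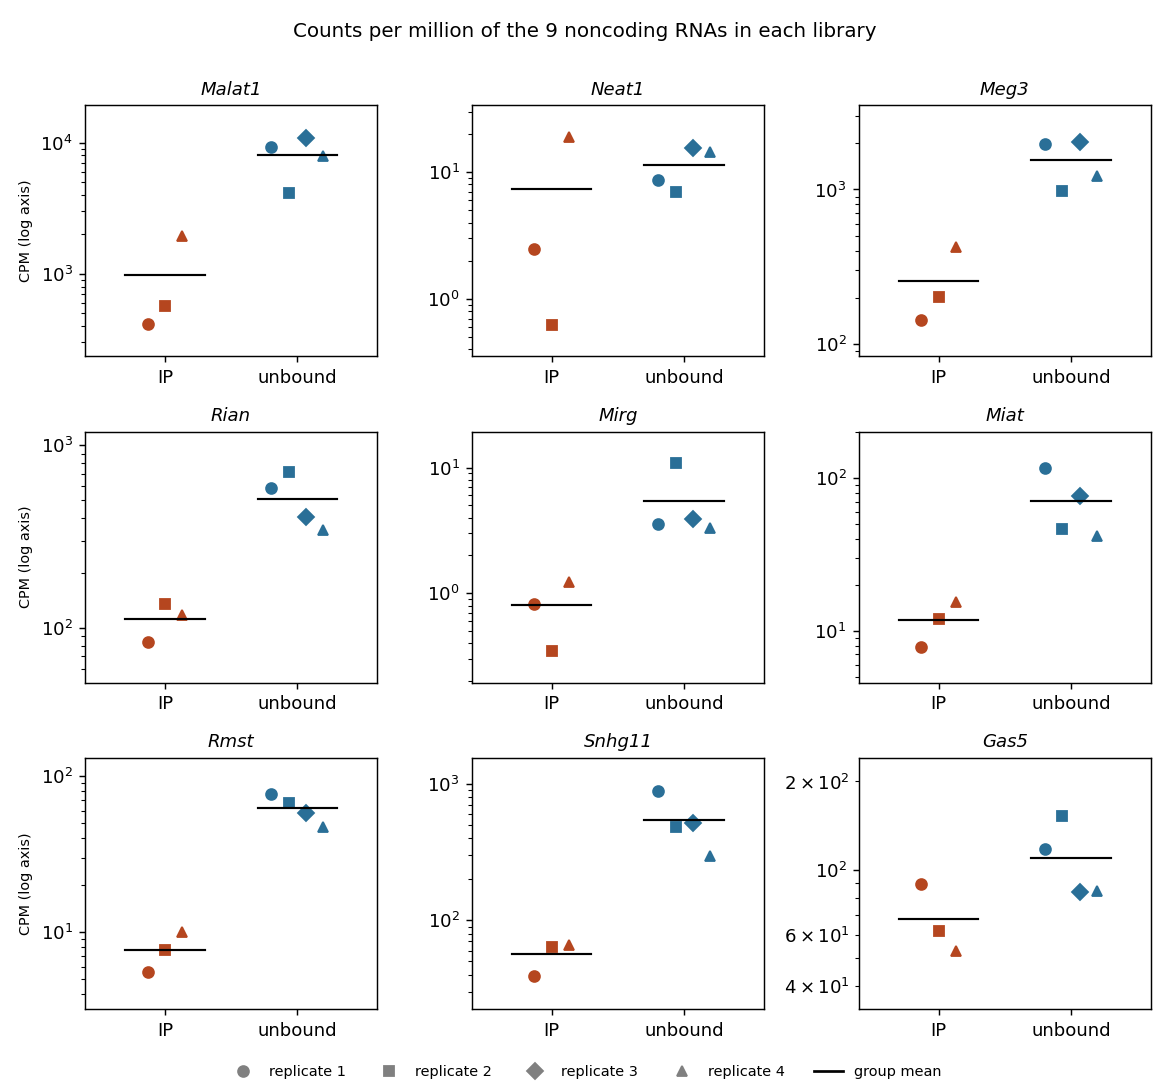
CPM (log axis) of the 9 noncoding RNAs in each library, IP on the left and unbound on the right of each panel, with 1 symbol per replicate number and a line at the arithmetic group mean. The groups overlap for Neat1 and Gas5 only, and IP 4 (triangle) is the highest IP library for Malat1, Neat1, Meg3, Mirg, Miat, Rmst and Snhg11.

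Together the 9 genes took 0.0834, 0.115 and 0.261% of gene counts in IP 1, 2 and 4, against 1.37, 0.563, 1.38 and 0.996% in unbound 1 to 4. Most of this was Malat1, with 0.044, 0.0623 and 0.191% in the IP libraries and 0.977, 0.353, 1.07 and 0.791% in the unbound libraries. All IP shares lay under the lowest unbound share.

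Malat1, the speckle RNA, measured 415, 569 and 1957 CPM in IP 1, 2 and 4, against 9315, 4116, 10906 and 7889 CPM in unbound 1 to 4. The groups did not overlap, IP 4 was the highest IP library and unbound 2 the lowest unbound library. Its IP libraries averaged 981 ± 849 CPM (SD, n = 3) and its unbound libraries 8056 ± 2902 CPM (SD, n = 4), and the log2 fold change was -3.04 ± 0.59 (SE; adjusted p = 0.00244). Malat1 ranked 5 among all tested genes by mean CPM in unbound RNA and 46 in IP, so it remained an abundant row in the IP libraries. Without IP 4 its log2 fold change was -4.02.

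Neat1, the paraspeckle scaffold, measured 2.48, 0.627 and 18.9 CPM in IP 1, 2 and 4, against 8.71, 6.97, 15.5 and 14.5 CPM in unbound 1 to 4. IP 1 and IP 2 lay below every unbound library and IP 4 above every one, a spread of 30.1-fold among 3 IP libraries. The counts behind these values were 186, 36 and 960 in IP and 406 to 823 in unbound RNA, well above the floor. The log2 fold change was -0.64 ± 0.84 (SE; adjusted p = 0.577). It moved with the libraries and with the fit: without IP 4 it was -2.86 (adjusted p = 0.00762) and without IP 2 -0.08, limma voom on all 7 libraries gave -1.87 (adjusted p = 0.0682), and the index as covariate gave -1.15 (adjusted p = 0.167). Within index ACAGTG it was -2.33 (adjusted p = 0.0778), and within the libraries of index GTGAAA, where IP 4 is the lone IP library, it was 0.35 (adjusted p = 0.337). The gene row does not separate the short from the long Neat1 transcript.

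The ratio of Neat1 to Malat1, its neighbour on chromosome 19, was 0.597, 0.11 and 0.964% in IP 1, 2 and 4, against 0.0935, 0.169, 0.142 and 0.184% in unbound 1 to 4. The groups overlapped, since IP 2 lay among the unbound libraries. The log2 ratio was higher by 1.48 in IP, and the exact permutation test over all 35 ways to assign 3 of the 7 libraries to IP (2-sided) gave p = 0.171 (adjusted p = 0.333 over 10 ratios). The smallest p this test can give is 0.0286. The difference was 2.41 without IP 2 and 0.85 without IP 4.

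Meg3, Rian and Mirg lie in this order on the plus strand of chromosome 12, at chr12:109541001-109571726, chr12:109603940-109661716 and chr12:109729764-109749460. All of them were lower in IP. Meg3, the first transcript of the maternal cluster, measured 143, 201 and 425 CPM in IP 1, 2 and 4, against 1967, 984, 2039 and 1217 CPM in unbound 1 to 4. Its groups did not overlap, and IP 4 was again the highest IP library. The mean was 257 ± 149 CPM in IP and 1552 ± 530 CPM in unbound RNA, and the log2 fold change was -2.60 ± 0.44 (SE; adjusted p = 0.00111).

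Rian, the host of a snoRNA cluster, measured 84, 136 and 118 CPM in IP 1, 2 and 4, against 581, 711, 407 and 344 CPM in unbound 1 to 4. Unlike Malat1 and Meg3 it was not highest in IP 4, which stood between the other IP libraries. Its log2 fold change was -2.18 ± 0.33 (SE; adjusted p = 0.000481).

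Mirg, the host of a miRNA cluster, was the member with the fewest counts, at 62, 20 and 63 in IP 1, 2 and 4, against 284, 627, 207 and 189 in unbound 1 to 4. In CPM these were 0.827, 0.348 and 1.24 in IP, against 3.56, 10.8, 3.93 and 3.33 in unbound RNA. The groups did not overlap, and unbound 2 stood far above the other unbound libraries. The log2 fold change was -2.75 ± 0.64 (SE; adjusted p = 0.00663). Within index GTGAAA, which holds neither IP 2 nor unbound 2, it was -1.53 (adjusted p = 0.0391).

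Within a library, Rian counts were 58.6, 67.8 and 27.8% of Meg3 counts in IP 1, 2 and 4, against 29.6, 72.3, 19.9 and 28.3% in unbound 1 to 4. The log2 ratio was higher by 0.53 in IP (exact permutation p = 0.4, adjusted p = 0.5), and the groups overlapped. Mirg was 0.173 to 0.576% of Meg3 in IP and 0.181 to 1.09% in unbound RNA, a log2 difference of -0.06 (exact permutation p = 0.914, adjusted p = 0.914), whose sign turned when single libraries were left out. For Mirg over Rian the log2 difference was -0.59 (exact permutation p = 0.486, adjusted p = 0.54). No ratio among these hosts differed beyond its spread.

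Small RNA rows that lie inside the hosts gave a further view of the same loci. Of 8 such rows inside Rian and 14 inside Mirg, 5 and 1 had enough counts to be tested. DQ267101, a snoRNA row inside Rian, had 1176, 1500 and 1116 counts in IP 1, 2 and 4, against 3991, 7583, 4183 and 4018 in unbound 1 to 4. It averaged 21.2 ± 5.26 CPM in IP and 82.6 ± 34.1 CPM in unbound RNA, a log2 fold change of -1.96 ± 0.34 (SE; adjusted p = 0.00136). Its sequence at chr12:109651424-109651496 on the plus strand, from GENCODE M21, is shown because it was the small RNA row with the most counts, and the capitals mark TGATGA and CTGA, the letters of box C and box D of such snoRNAs.
DQ267101: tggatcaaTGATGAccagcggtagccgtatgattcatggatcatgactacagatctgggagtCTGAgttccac
The snoRNA rows AF357425 and AF357426 were lower as well, by -2.79 ± 0.84 (adjusted p = 0.0218) and -3.94 ± 1.23 (adjusted p = 0.0264), on 30 and 5 counts summed over the IP libraries and 280 and 111 over the unbound libraries. The IP mean of AF357426, 0.0243 CPM, lay under the detection floor. Both AF357425 and AF357426 passed the filter on low counts through their unbound counts. They could thus be called only lower, and these calls add no support. These libraries were not made for small RNA, so reads on such rows may come from the host transcript, and the rows and their hosts are no independent measurements.

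Of the miRNA rows 3 were tested. Mir377, inside Mirg, had 0, 0 and 2 counts in IP 1, 2 and 4, against 67, 33, 15 and 5 in unbound 1 to 4. Its IP mean of 0.0131 CPM lay under the detection floor, and it passed the filter on low counts through its unbound counts. It could thus be called only lower (adjusted p = 0.0226), and the call adds no support. Mir1188, inside Rian, had 4, 43 and 28 counts in IP and 116, 24, 68 and 64 in unbound RNA, and did not pass (adjusted p = 0.307). Mir341, also inside Rian, had 7 counts in the IP libraries together and 68 in the unbound libraries (adjusted p = 0.13). The mature miRNAs of these rows, from RefSeq on mm10, are given with the seed, bases 2 to 8, in capitals.
mmu-miR-377-5p: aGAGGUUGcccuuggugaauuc
mmu-miR-377-3p: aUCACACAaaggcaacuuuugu
mmu-miR-1188-5p: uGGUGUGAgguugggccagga
mmu-miR-1188-3p: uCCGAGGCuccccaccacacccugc
mmu-miR-341-5p: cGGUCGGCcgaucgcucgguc
mmu-miR-341-3p: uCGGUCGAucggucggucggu
No seed was shared among the 6. Counts on these rows are reads over the hairpin's position, not mature miRNA levels.

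Coding genes of the same imprinted region were set beside these hosts. Of 7 listed, 6 were tested and 2 were lower in IP, with a list median of -0.73 on the log2 scale against -0.10 over all genes. Rtl1, a retrotransposon-derived gene expressed from the paternal copy, averaged 2.21 ± 0.909 CPM in IP and 7.36 ± 2.38 CPM in unbound RNA (log2 fold change -1.74 ± 0.44, adjusted p = 0.0102). Begain, a gene of a postsynaptic density protein, stood at -1.55 ± 0.25 (adjusted p = 0.000711). Dlk1, a Notch-pathway ligand homologue of the paternal copy, stood at -0.75 ± 0.31 and did not pass (adjusted p = 0.0783). Ppp2r5c, a phosphatase subunit and the most abundant of the list, stood at -0.53 ± 0.21 (adjusted p = 0.0674). The count of 2 was 1 without IP 2 and 4 without unbound 2.

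Miat, the neuronal RNA with the TACTAAC copies shown above, measured 7.85, 12 and 15.5 CPM in IP 1, 2 and 4, against 117, 46.7, 76.5 and 41.7 CPM in unbound 1 to 4. The highest IP library lay well under the lowest unbound library. Its log2 fold change was -2.58 ± 0.41 (SE; adjusted p = 0.000721). Sf1, whose protein binds such letters, was higher in IP at 195 ± 21.9 CPM, against 118 ± 11.4 CPM in unbound RNA (log2 fold change 0.72 ± 0.21, adjusted p = 0.0183).

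Rmst, the Sox2-associated RNA at chr10:92071037-92165170 on the minus strand, measured 5.52, 7.67 and 10 CPM in IP 1, 2 and 4, against 76.1, 67.4, 57.5 and 47.1 CPM in unbound 1 to 4. In unbound RNA it was the steadiest of the 9, the highest library standing at 1.61 times the lowest, while in IP that factor was 1.82. Its log2 fold change was -3.0 ± 0.30 (SE), and its adjusted p of 3.01e-05 was the smallest among the 9.

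Snhg11, at chr2:158375638-158386145 on the plus strand, measured 39.4, 63.8 and 66.2 CPM in IP 1, 2 and 4, against 876, 477, 511 and 293 CPM in unbound 1 to 4. It had the lowest log2 fold change of the 9, -3.26 ± 0.40 (SE; adjusted p = 0.000142). GENCODE M21 types the gene as protein-coding, whereas RefSeq types it as a long noncoding RNA.

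Gas5, at chr1:161034422-161038539 on the plus strand, measured 89.3, 62 and 53 CPM in IP 1, 2 and 4, against 118, 152, 84.1 and 84.4 CPM in unbound 1 to 4. The groups overlapped, as IP 1 lay above unbound 3 and unbound 4, and IP 4 was here the lowest IP library. The mean was 68.1 ± 18.9 CPM in IP and 109 ± 32.2 CPM in unbound RNA, and the log2 fold change of -0.68 ± 0.29 did not pass (adjusted p = 0.0818). With the sequencing index as a covariate it passed, at -0.77 (adjusted p = 0.0192). Without IP 4 and unbound 2 it was -0.33 (adjusted p = 0.292). Gas5 overlaps Zbtb37 on the opposite strand, and the strand setting of the counting is not given in the sources used here, so their reads cannot be told apart. Malat1, Meg3, Mirg, Miat and Rmst each overlap 1 predicted gene on the opposite strand as well.

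**Figure D2:**
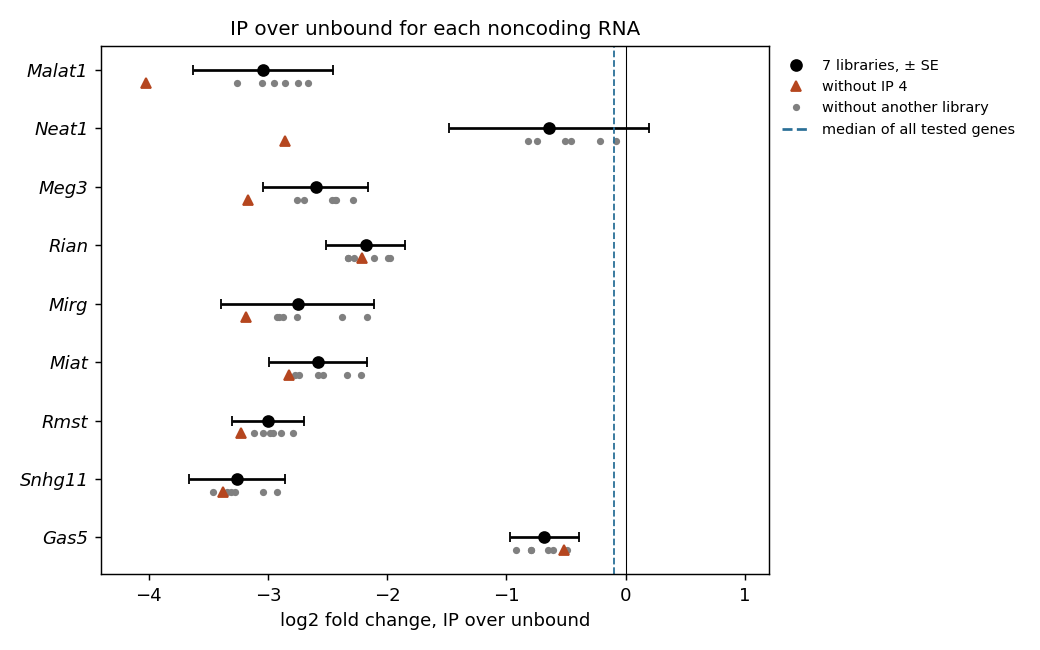
Log2 fold change of IP over unbound for each noncoding RNA (black, ± SE from the fit over all 7 libraries), with the values when IP 4 (triangle) or another library (grey) was left out and a dashed line at the median of all tested genes, -0.10. The 7 called genes stay at or below -1.98 in each of these fits, while Neat1 ranges from -2.86 to -0.08.

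Gas5 was set against the other members within each library, where scaling cancels. Gas5 counts were 227, 97.3 and 80% of Snhg11 counts in IP 1, 2 and 4, against 13.4, 31.8, 16.5 and 28.8% in unbound 1 to 4. The groups did not overlap, and the log2 ratio was higher by 2.51 in IP. The exact permutation test gave p = 0.0286, the smallest it can give, which became 0.286 after adjustment over the 10 ratios and did not pass. On its own, no single ratio could pass by this test after adjustment, whatever its difference. Gas5 was 21.5, 10.9 and 2.71% of Malat1 in IP 1, 2 and 4, against 1.26, 3.68, 0.771 and 1.07% in unbound 1 to 4, a log2 difference of 2.62 (exact permutation p = 0.0857, adjusted p = 0.286). IP 4 overlapped the unbound range there, and the difference was 3.45 without IP 4 and 1.96 without IP 1.

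The other ratios differed by less. Meg3 over Malat1 was 21.7 to 35.3% in IP and 15.4 to 23.9% in unbound RNA (log2 difference 0.61, exact permutation p = 0.0857). Miat over Malat1 was 0.793 to 2.1% in IP and 0.529 to 1.25% in unbound RNA (log2 difference 0.78, exact permutation p = 0.2). Rmst over Miat was 64.1 to 70.3% in IP and 65.2 to 144% in unbound RNA (log2 difference -0.51, exact permutation p = 0.2). Snhg11 over Meg3 was 15.6 to 31.7% in IP and 24.1 to 48.5% in unbound RNA (log2 difference -0.50, exact permutation p = 0.286). None of the 10 ratios passed after adjustment, which no single ratio could have done alone.

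Since neuronal mRNAs were lower in IP too, each noncoding RNA was also expressed per 1000 counts of the 18 pan-neuronal genes in the same library, a comparison added after the data had been seen. The counts of these genes were summed, so Snap25 weighed most. It averaged 3521 CPM in IP and 12123 CPM in unbound RNA, against 881 and 2629 CPM for Vsnl1, the next most abundant. Rmst stood at 1.11, 1.48 and 0.971 per 1000 in IP 1, 2 and 4, against 4.27, 2.84, 2.34 and 1.73 in unbound 1 to 4. Its groups did not overlap, and its log2 difference was -1.18 (exact permutation p = 0.0571, adjusted p = 0.257 over the 9 genes). Meg3 stood at 28.8, 38.7 and 41.1 per 1000 in IP, against 110, 41.5, 83 and 44.8 in unbound RNA, also without overlap, with a log2 difference of -0.84 (exact permutation p = 0.143, adjusted p = 0.257).

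Malat1 stood at 83.5, 110 and 189 per 1000 in IP 1, 2 and 4, against 522, 174, 444 and 290 in unbound 1 to 4, a log2 difference of -1.45 (exact permutation p = 0.0857, adjusted p = 0.257). IP 4 overlapped unbound 2. Snhg11 differed by -1.35 and Mirg by -0.90 on the log2 scale, Miat by -0.67 and Rian by -0.31, all with overlapping groups. Gas5 lay the other way, at 18, 11.9 and 5.12 per 1000 in IP, against 6.6, 6.4, 3.42 and 3.1 in unbound RNA (log2 difference 1.16, exact permutation p = 0.143, adjusted p = 0.257). Neat1 differed by 0.03. None of the 9 passed. The smallest p this test can give is 0.0286, so no single gene could pass on its own after adjustment over the 9 genes. With 7 libraries the test therefore cannot decide for 1 gene alone whether it differed from the neuronal mRNAs.

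**Figure D3:**
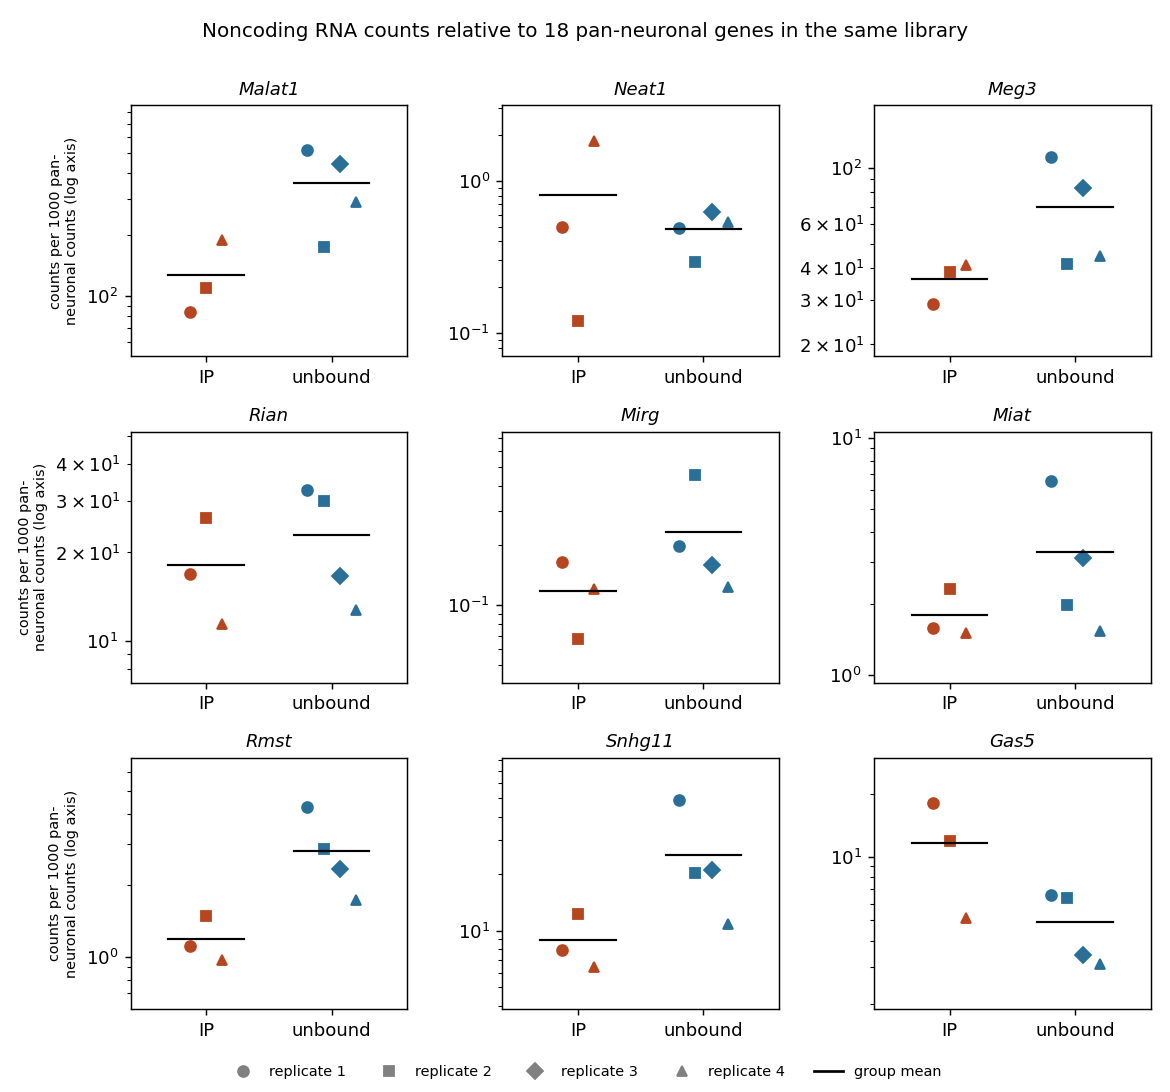
Counts of each noncoding RNA per 1000 counts of 18 pan-neuronal genes in the same library (log axis), IP on the left and unbound on the right of each panel, with lines at arithmetic group means. Groups are separate for Meg3 and Rmst only, and Gas5 is the one gene whose 2 highest values are both IP libraries.

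Levels between genes were compared per length, as mean CPM per kilobase of merged GENCODE M21 exons. In IP the order was Malat1 at 140 ± 122, Gas5 at 18.1 ± 5.03, Meg3 at 14.2 ± 8.24, Snhg11 at 6.62 ± 1.74, Rian at 6.19 ± 1.46, Miat at 1.27 ± 0.413, Rmst at 1.04 ± 0.305, Neat1 at 0.353 ± 0.483 and Mirg at 0.11 ± 0.061 CPM per kilobase (SD, n = 3). Among neighbours in this order, only Rian and Miat were apart by more than their SDs. The SD of Malat1 was wide through IP 4. Library by library Malat1 stood above Gas5, at 415, 569 and 1957 CPM against 89.3, 62 and 53 CPM in IP 1, 2 and 4, on 6.983 and 3.76 kilobases. In unbound RNA the order was Malat1 at 1154 ± 416, Meg3 at 85.8 ± 29.3, Snhg11 at 63.3 ± 28.6, Gas5 at 29.1 ± 8.57, Rian at 28 ± 9.17, Rmst at 8.35 ± 1.69, Miat at 7.58 ± 3.71, Mirg at 0.74 ± 0.492 and Neat1 at 0.55 ± 0.203 CPM per kilobase (SD, n = 4). There the SDs left gaps between Malat1 and Meg3, between Rian and Rmst, and between Miat and Mirg. Gas5 thus ranked 2 in IP and 4 in unbound RNA. The ranks depend on the length used: per kilobase of the longest transcript, Gas5 ranked 2 in IP at 26.6 and 5 in unbound RNA at 42.8, below Rian at 63.2, and Rian passed Snhg11 in IP, at 14 against 9.62.

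IP 4 did not raise all members alike. Against the mean of IP 1 and IP 2 it held 12.1 times as much Neat1, 3.97 times as much Malat1, 2.47 times as much Meg3 and 2.11 times as much Mirg. For Miat the factor was 1.57, for Rmst 1.52, for Snhg11 1.28, for Rian 1.08 and for Gas5 0.7. The pan-neuronal share in IP 4, at 1.01%, was also above the 0.526 and 0.568% of IP 1 and IP 2. So was the oligodendrocyte share, at 0.185% against 0.131 and 0.154%. The pericyte and smooth muscle share was lower in IP 4, at 0.386% against 0.574 and 0.622%, and so was the endothelial share, at 0.171% against 0.227 and 0.224%. The astrocyte share of 0.458% lay between those of IP 1 and IP 2. The part of these shares in the members' values was not tested.

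Other noncoding RNAs and related gene groups were read beside the members. Of 26 further nuclear or locus-acting noncoding RNAs, 21 were tested, 7 were lower in IP and 2 were higher, with a median log2 fold change of -0.92. Firre, an X-linked RNA that organises chromatin contacts, averaged 2.9 ± 0.655 CPM in IP and 18.9 ± 5.45 CPM in unbound RNA (log2 fold change -2.70 ± 0.34, adjusted p = 0.000154). Kcnq1ot1, the imprinted silencer of its own locus, stood at -3.21 ± 0.44 (adjusted p = 0.000271). The host of Mir124a-1, counted as A930011O12Rik, stood at -3.34 ± 0.54 (adjusted p = 0.000835). The others called lower were Rmrp at -3.13, Pvt1 at -2.54, Snhg14 at -1.96 and Sox2ot at -1.54. Rmrp was the least certain of these, with an SE of 0.96 (adjusted p = 0.0249) and overlapping groups. It had 11, 9 and 30 counts in IP 1, 2 and 4, against 44, 373, 104 and 84 in unbound 1 to 4. Rmrp passed the filter on low counts through its unbound counts, so its call adds no support to the count of 7.

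Dleu2 and Airn were the RNAs of that list that were higher in IP. Dleu2, a miRNA host, averaged 14.4 ± 6.26 CPM in IP and 3.2 ± 1.45 CPM in unbound RNA (log2 fold change 2.17 ± 0.44, adjusted p = 0.00304). Airn, the imprinted antisense RNA of Igf2r, averaged 6.17 ± 4.1 CPM in IP and 1.61 ± 0.834 CPM in unbound RNA (log2 fold change 1.94 ± 0.61, adjusted p = 0.0268). The count of 2 was 1 without IP 1, IP 2, unbound 3 or unbound 4. Norad, a largely cytoplasmic RNA that binds Pumilio proteins and is counted as 2900097C17Rik, averaged 254 ± 93.1 CPM in IP and 416 ± 85.4 CPM in unbound RNA and did not pass (log2 fold change -0.71 ± 0.30, adjusted p = 0.0836). Tug1 stood at 0.01 ± 0.29 (adjusted p = 0.988). Xist had 96, 86 and 70 counts in IP 1, 2 and 4, against 478, 175, 345 and 0 in unbound 1 to 4. It did not pass (log2 fold change -1.49 ± 1.15, adjusted p = 0.327). The cause of its absence from unbound 4 was not tested.

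Of 17 snoRNA host genes other than Snhg11 and Gas5, 15 were tested, 6 were lower in IP and 1 was higher, with a median of -0.69. Snhg7 had the lowest value, -2.69 ± 0.58 (adjusted p = 0.00417), on 0.812 ± 0.222 CPM in IP and 5.28 ± 3.43 CPM in unbound RNA. Snhg18 was the one that was higher, at 32.8 ± 3.75 CPM in IP and 5.23 ± 0.71 CPM in unbound RNA (log2 fold change 2.65 ± 0.25, adjusted p = 1.84e-05). Snhg1, the most abundant host, stood at 1.13 ± 0.53 and did not pass (adjusted p = 0.112). The count of 6 rested on single libraries: it was 1 without IP 2, 1 without IP 4, 1 without unbound 2 and 2 without IP 1.

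Translated TOP mRNAs, which share their kind of start with Gas5, had a median of -0.03. Of 19 tested, 1 was higher, the poly(A) binding protein gene Pabpc1 (1.24 ± 0.24, adjusted p = 0.00204), and 1 was lower, the elongation factor gene Eef1g (-1.09 ± 0.35, adjusted p = 0.0289). Eef1a1, the most abundant, stood at 0.25 ± 0.28 (adjusted p = 0.51). Without unbound 2 there were 3 higher, without both IP 4 and unbound 2 there were 6, and the lower one was lost without IP 1, IP 2, IP 4 or unbound 1. The Gas5 value of -0.68 lay within the range of this list but towards its lower end, and close to the snoRNA host median of -0.69.

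Genes whose proteins share nuclear bodies with Malat1 and Neat1 were counted as well. Of 16 paraspeckle protein genes, 3 were higher in IP and 3 lower, with a median of -0.09. Hnrnpm, a splicing regulator, stood at 0.95 ± 0.21 (adjusted p = 0.00536), and Pspc1, a core paraspeckle protein, at -1.24 ± 0.26 (adjusted p = 0.00403). The higher count was 1 without IP 1, IP 2 or unbound 3, and the lower count was 1 without IP 2 or IP 4. Of 15 nuclear speckle protein genes, 2 were higher and none lower, with a median of 0.28. They were Sf1 and Prpf8, the central spliceosome protein (1.91 ± 0.39, adjusted p = 0.00306), and 1 of them was left without IP 1 or IP 2. Of 16 tested coding genes next to the members, 5 were higher and 1 lower, the latent TGF-beta binding protein gene Ltbp3 (-1.08 ± 0.29, adjusted p = 0.013), which lies near Malat1 and was lost without IP 1 or IP 2. Crybb1, a crystallin gene near Miat, was higher at 14.1 ± 1.96 CPM in IP, against 1.51 ± 0.755 CPM in unbound RNA (3.22 ± 0.44, adjusted p = 0.000277).

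**Figure D4:**
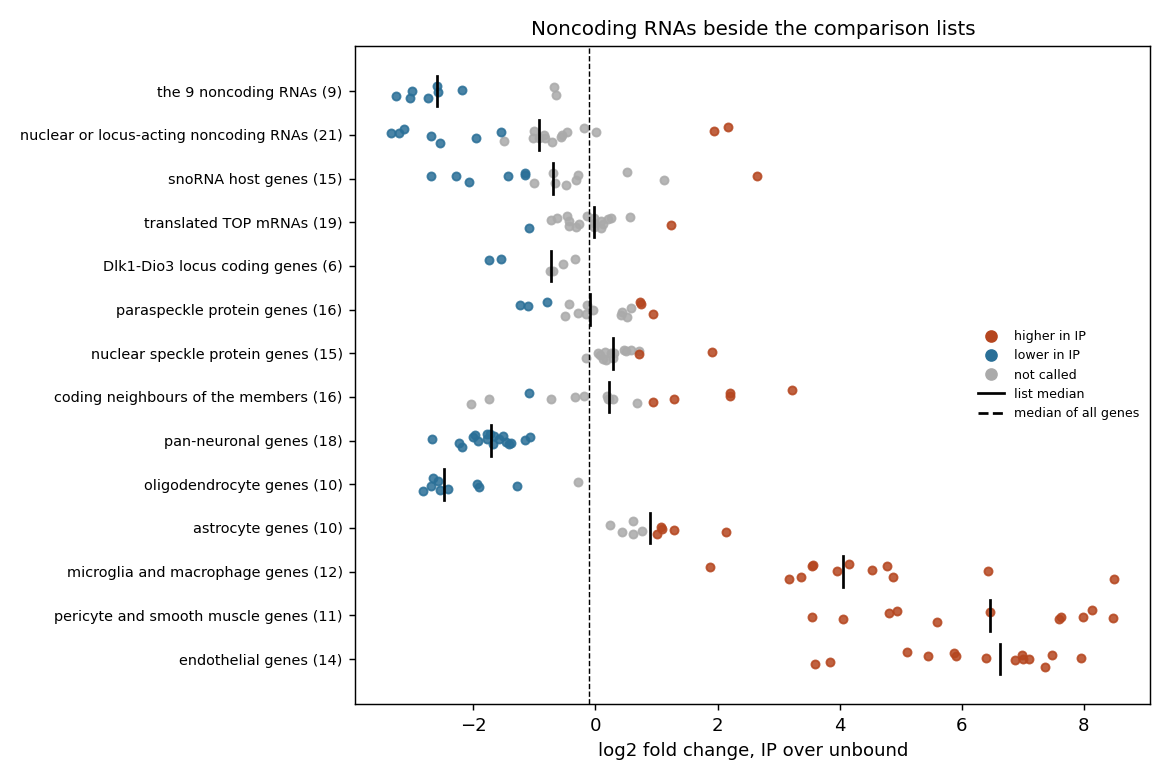
Log2 fold change of IP over unbound for the 9 noncoding RNAs and for the tested genes of 13 comparison lists (number of genes in brackets), coloured by the call, with a bar at each list's median and a dashed line at the median of all genes. The noncoding RNAs have a median of -2.60, against -2.47 for the oligodendrocyte genes, -1.70 for the pan-neuronal genes and 6.64 for the endothelial genes. The lists of oligodendrocyte precursor, ependymal and choroid plexus, and erythroid genes are not drawn.

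Neuronal and oligodendrocyte mRNAs were lower in IP along with the 7 called RNAs. Snap25, a synaptic vesicle fusion protein gene, stood at -1.78 ± 0.38 (adjusted p = 0.00397), and Stmn2, a neuronal microtubule regulator, at -1.98 ± 0.28 (adjusted p = 0.000323). Of the 10 oligodendrocyte genes 9 were lower, with a median of -2.47. Of the 18 pan-neuronal genes all were lower, with a median of -1.70. Oligodendrocyte precursor genes were lower in 6 of 7 cases (median -1.49) and erythroid genes in 3 of 3 tested (median -2.35). Of 7 tested ependymal and choroid plexus genes 3 were higher and 1 lower (median 0.48), the last of these lost without IP 1, IP 2, unbound 3 or unbound 4. Of 10 astrocyte genes 5 were higher and 0 lower (median 0.89).

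For each member the genes with the most similar course over the 7 libraries were found by the root mean square distance of log2 CPM, each centred on its own mean. The measure includes the difference between IP and unbound, so it describes and tests nothing. The nearest gene to Malat1 was Kcnq1ot1 at a distance of 0.394, followed by Smarca1 and Adamts6. Meg3 lay nearest to Fat3 at 0.259, and Rian to Cpne7 at 0.171. Mirg lay nearest to Epha5 at 0.234, Rmst to Mapk8ip2 at 0.24 and Snhg11 to the same Mapk8ip2 at 0.4. The named gene nearest to Miat was the pseudogene Tmem181b-ps at 0.221, followed by Ache at 0.265. Neat1 had no close partner, its nearest being Slc17a7 at 0.643, a glutamate transporter gene. Gas5 lay nearest to Ogfod2 at 0.099, Selk at 0.112 and Rcc1 at 0.121, none of which passed the test. Among the members the closest pairs were Rmst with Snhg11 at 0.284 and Meg3 with Miat at 0.32, and the farthest was Malat1 with Gas5 at 1.658.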

How the data were processed

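RNA-seq libraries of 3 IP and 4 unbound samples were used, grouped by their titles. The authors deposited raw counts of reads for 32531 gene symbols. Per the submitters' processing notes, STAR 2.0.0e, HTSeq and the build mm10 were used. Which annotation, strand setting and filters went into the counting is not given in the sources used here. The 6 rows that name no gene were left out of library sizes. They hold reads outside genes (11.3 to 18.6% of all rows), ambiguous reads (1.43 to 11.5%) and reads with several alignments (17.6 to 39.6%), as their row names state. The counts were tested with edgeR 4.0.16 (filterByExpr, TMM, robust quasi-likelihood F test, 2-sided, no block, Benjamini-Hochberg threshold 0.05 over 17654 genes) in R 4.3.3, checked on simulated data. SE is the absolute log2 fold change over the square root of F. Ratios within a library were compared with exact permutation tests, adjusted over 10 ratios or 9 genes. Alternatives were DESeq2 1.42.0, limma 3.58.1, other scalings and filters, the index, a replicate block and leaving out libraries. Replicates differed beyond counting noise, with a chi-square per degree of freedom from 82.6 to 1290, and none were merged. Nothing in the labels says whether replicate numbers pair the libraries, and the main fit assumed no pairing.

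The 9 genes, the 16 comparison lists and the tests were chosen with earlier results of these data known. Genes named are the 9, the genes of the noncoding, snoRNA host and imprinted locus lists, of each other list the genes with the smallest p, the highest level and the smallest p against the majority, and for each of the 9 the nearest genes by profile with at least 5 CPM, passing over symbols made of an identifier. Eef1g and Sf1 were named with their values in view. Lengths and positions are from GENCODE M21 (GRCm38), miRNAs and gene starts from RefSeq, which had no start for Neat1 and Rmst.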

Additional observations from a re-analysis of the deposited data

Results flagged for a closer look

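Mirg stood out in 1 of the 4 unbound libraries. It measured 10.8 CPM in unbound 2, against 3.33 to 3.93 CPM in the other unbound libraries, and the gap to its nearest neighbour was 0.92 of the whole range, above the critical value of 0.829 for 4 samples. This was the only one of 28 sets of unbound values checked that passed this limit, and chance alone passes about 1 in 20. Without unbound 2 the log2 fold change of Mirg was -2.17 and it remained lower in IP.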

How the results depend on the processing

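Malat1, Meg3, Rian, Miat, Rmst and Snhg11 were lower in IP under all 19 alternatives, and Mirg under the 18 in which it was tested, as it did not reach 5 CPM in 3 libraries. Leaving out IP 4 and unbound 2 together, and the ratios to pan-neuronal genes, were added after the data had been seen. Neat1 ranged from -2.86 to -0.08 on leaving out single libraries, was -3.04 without IP 4 and unbound 2, was 0.35 within index GTGAAA, and with all libraries was -1.87 under limma voom and -1.62 (adjusted p = 0.0788) with the replicate block. Gas5 passed with the index as covariate (-0.77) and within index GTGAAA (-0.65). Within index ACAGTG 2190 genes were higher and 1650 lower, and on leaving out single libraries 1751 to 3632 were lower. The nuclear noncoding list had 1 to 2 higher genes, and the snoRNA hosts had 1 to 2 higher and 1 to 6 lower, on leaving out single libraries. The hosts had 2 higher without TMM factors and 3 higher and 1 lower without IP 4 and unbound 2. Mirg over Meg3 turned to 0.23 with 10 added to each count, to 0.58 without IP 4 and unbound 2, and ranged from -0.51 to 0.54 otherwise, including 0.36 without IP 2. Mirg over Rian ranged from -0.94 to 0.07. Per pan-neuronal counts, Neat1 ranged from -0.93 to 1.02, with -0.19 without unbound 2 and -1.16 without IP 4 and unbound 2, where Rian was 0.15. The cause of these changes was not tested.

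With the replicate number as a block, 3154 genes were higher and 2618 lower. The 7 noncoding RNAs called in the main fit had log2 fold changes from -3.16 to -2.24 there. The deviations of same-numbered libraries correlated at -0.0271, 0.0423 and 0.158, and those of differently numbered libraries at -0.191 to 0.199. These values cannot decide whether libraries of the same number came from the same homogenate. For Gas5 over Snhg11 the block gave 2.39, with a smallest possible p of 0.25. With 1 library left out, the exact permutation test of a ratio cannot give a p below 0.05 (an unbound library out) or 0.0667 (an IP library out), and with IP 4 and unbound 2 out not below 0.1. The lowest counts were those of Mirg (20 in IP 2) and Neat1 (36 in IP 2), both above the floor of 3.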

Other observations

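Grouped by GENCODE M21 gene type, a grouping made with the data in view, noncoding classes held more lower than higher genes in IP. Of 259 tested lincRNA genes, 23 were higher and 63 lower (24.3%), with a median log2 fold change of -0.85. Without the 9 members of this report, 253 lincRNA genes remained, of which 23 were higher and 58 lower (22.9%), with a median of -0.84. The other noncoding RNAs named above were not taken out. Of 231 antisense genes, 20 were higher (8.66%) and 49 lower (21.2%), with a median of -0.88. Of 179 processed transcripts, 17 were higher (9.5%) and 38 lower (21.2%), with a median of -0.68. The 14737 protein-coding genes had 22.6% higher and 18.4% lower, with a median of -0.01. Among all tested genes 20.5% were higher and 18.9% lower, so the lower shares of the noncoding classes lay near that of all genes. The pattern was not particular to these classes. The 2042 tested genes whose symbol is not in GENCODE M21 had 10.4% higher and 21.6% lower, with a median of -0.76. The lincRNA class without those members took 0.132 to 0.146% of gene counts in IP and 0.152 to 0.203% in unbound RNA.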
